A study of Homo sapiens with 6 samples.

Results

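Amino acid transporters of the plasma membrane were measured in MM1S cells, which are grown as an established line and derive from a human myeloma, a tumour of the plasma cells that secrete antibody. The group holds 10 genes, SLC7A1, SLC7A5, SLC7A6, SLC7A11, SLC3A2, SLC1A4, SLC1A5, SLC38A1, SLC38A2 and SLC43A1, of 19775 genes with a probe set of their own. Every probe set annotated to one of these symbols alone was taken, which gave 27 of the 54613 probe sets in the table. A probe set is a group of short array probes that together read one transcript, and 6 of the genes had several. The cells had been in hypoxia for 24 h on 3 arrays and in normoxia on 3 arrays, with the array replicates numbered 0, 1 and 2 in each condition. The exposure time is given in the treatment text of all 6 arrays. The condition label separates the groups, and the sample titles do so in the same way. The titles also hold a running number, in which both arrays numbered 0 come first. No other difference between the groups is named, and the sources used here give neither the oxygen level nor the culture medium and its amino acids. The labels do not say that replicates came from separate cultures, so p-values measure the spread between these arrays, which may be technical.

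Cells import amino acids through families of carriers with overlapping substrates. Some are exchangers, which let an amino acid in only against another that leaves, and others are driven by the sodium gradient and fill the pool that the exchangers trade against. SLC3A2 is the heavy chain of CD98, a glycoprotein that brings several light chains to the cell surface, among them SLC7A5, SLC7A6 and SLC7A11. Plasma cells make large amounts of antibody, and several of these carriers are known targets of ATF4, the transcription factor that the cell translates when amino acids run short. Imported leucine, glutamine and arginine are also read by the pathway that activates the growth kinase complex mTORC1.

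Expression of the transporters was lower in hypoxia almost throughout. With each gene read by its brightest probe set, 9 of 10 genes fell, 0 rose and SLC1A5 did not pass, in limma with Benjamini-Hochberg adjustment over all genes and a threshold of 0.05. Among all genes 20.6% fell and 16.9% rose. The 10 genes were chosen with earlier results of these data known, so the shares beside their counts are a description and no test. Calls were more frequent among bright genes: of 5549 genes with a mean intensity between those of the dimmest and the brightest of the 10, 38.3% fell and 29% rose. The median log2 change, hypoxia minus normoxia on log2(intensity + 16), was -0.51 for the 10 genes, -0.059 for the 5549 genes of like brightness and -0.00016 for all genes. SLC43A1 and SLC7A11 fell by more than 2-fold, as did 4.75% of all genes. The other 8 genes lay between log2 changes of -0.69 and -0.11. Without both arrays numbered 0, left out after their values were seen, 9 genes still fell.

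At the level of probe sets, 23 of 27 fell, 0 rose and 4 did not pass in limma adjusted over all 54613 probe sets, and the same 23 had an unadjusted p under 0.05. Among all probe sets 15.2% fell and 15.5% rose, and 27% fell among those with a mean intensity of at least 64. The 3 hypoxia arrays all lay below the 3 normoxia arrays for 24 of the 27, against 20.9% of all probe sets. That share includes dim probe sets, none was taken for bright ones alone, and several of the 27 share a gene. No filter on dim probe sets was applied, and all 27 were tested. For 3 of them the mean intensity over the 6 arrays was under 64, close to the array medians of 54.95 to 60.1, where signal cannot be told from background. Of the other 24, 22 fell. In bulk RNA a lower level of a transcript in every cell and fewer of the cells that carry it cannot be told apart.

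**Figure D1:**
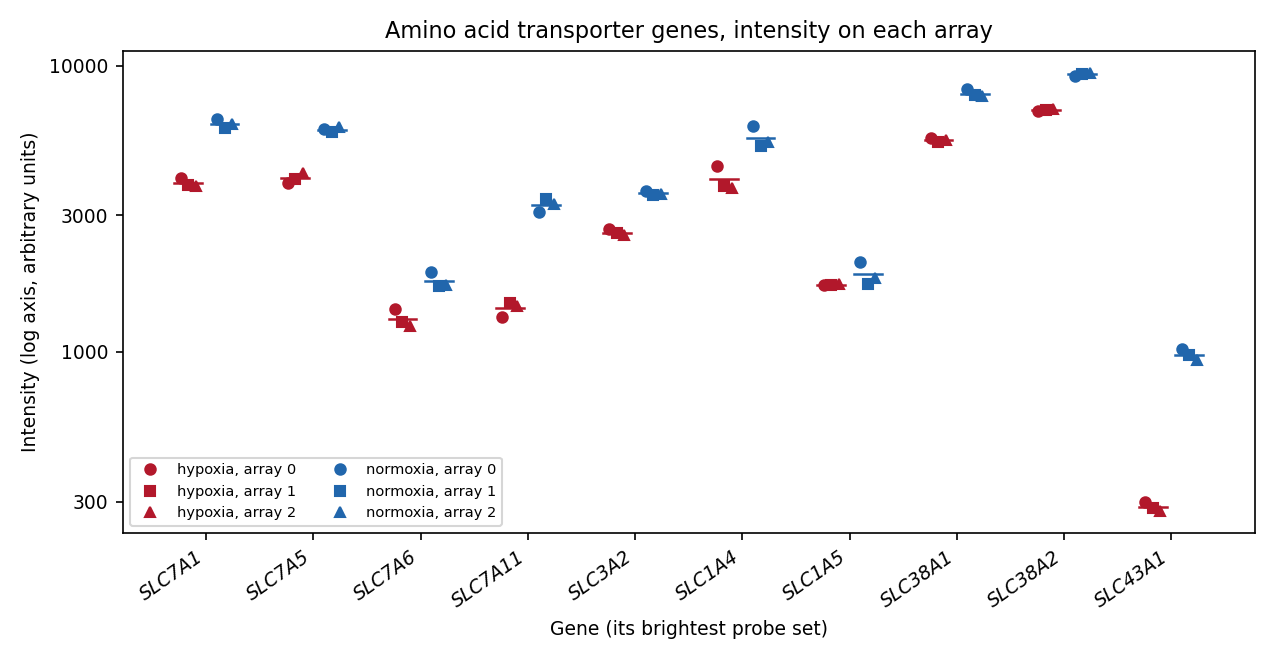
Intensity (log axis) of the brightest probe set of each gene on each array, hypoxia in red left of normoxia in blue, with marker shape for the array number and a line at each mean of 3 arrays. Hypoxia arrays lie below normoxia arrays for all 10 genes, by the widest margin for SLC43A1 (288 against 978) and the narrowest for SLC1A5 (1720 against 1868). The same holds for 20.9% of all probe sets, dim ones included.

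The hypoxia label was checked on known targets. Of 19 measured targets of the hypoxia-inducible factors, 16 rose, with a median log2 change of 1.75, and 0 fell. The shares of all genes were 16.9% rising and 20.6% falling, and of genes as bright as the 10 transporters 29% and 38.3%. All 10 plasma cell markers had a mean intensity of at least 64, and their summed intensity was 62479.5 to 64829.9 in hypoxia and 62325 to 64651.4 in normoxia, while 2 of the 10 rose and 4 fell. Of 29 measured markers of 6 other cell types, 8 had a mean of at least 64. Among the 29, 5 rose and 1 fell. Beside the shares of all genes and of bright genes, nothing particular to the markers is read from these counts. Summed over each list, the erythroid markers stood at 1139 to 1190 in hypoxia and 1717 to 1936 in normoxia, and the other lists at 131 to 493 in hypoxia and 119 to 347 in normoxia. Their part in the transporters' changes was not tested. Pearson correlations of log2 values between arrays, across probe sets that are not independent replicates, were 0.988 to 0.993 within a condition and 0.962 to 0.968 between conditions.

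Promoter sequence was read for motifs of factors that are known regulators of amino acid supply. The windows run from 250 bases before to 50 after an annotated start, in RefSeq on build GRCh38.p14, and 9 of the 10 genes had 1 to 3 windows each, 16 in all. SLC7A11 was not among them. Each motif was searched on both strands. CACGTG, the E-box that MYC binds, occurred in 3 of the 16 windows, one each of SLC7A5, SLC43A1 and SLC1A5, and in 7.26% of 35116 windows of all genes. TTGCATCA, the C/EBP-ATF response element read by ATF4, occurred in 2 windows, one of SLC1A4 and one of SLC1A5, and in 0.866% of all windows. Its looser form TGATGNAA, which includes it, was in 5 windows of 5 genes, against 3.62% of all. TGACNNNGC, the core of the antioxidant response element, was in 5 windows of 5 genes, against 13.3% of all. The hypoxia response element cores ACGTG and GCGTG, the first of which lies inside every CACGTG, were in 6 and 11 of the 16 windows, against 21.4% and 36.5% of all. In SLC1A5 the E-box and the C/EBP-ATF response element lay in different windows. Any link between the motifs and the changes was not tested.

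The sequences below show the motif of each factor in its surroundings, 5′ to 3′ on the strand of the gene, with the motif in capitals. The first pair holds the E-box in SLC7A5 at chr16:87869595-87869674 on the minus strand and in SLC43A1 at chr11:57515772-57515851 on the minus strand. The next pair holds the ATF4 element of SLC1A4 at chr2:64989381-64989410 on the plus strand and of SLC1A5 at chr19:46784893-46784922 on the minus strand, the second as its reverse complement. The last is the antioxidant element of SLC3A2 at chr11:62881652-62881681 on the plus strand, 37 bases before a start. A match describes the letters and is no evidence of binding.
SLC7A5: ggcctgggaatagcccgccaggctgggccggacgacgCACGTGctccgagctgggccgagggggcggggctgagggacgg
SLC43A1: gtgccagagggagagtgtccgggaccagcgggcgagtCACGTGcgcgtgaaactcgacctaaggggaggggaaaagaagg
SLC1A4: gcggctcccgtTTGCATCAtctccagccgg
SLC1A5: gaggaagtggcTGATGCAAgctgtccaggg
SLC3A2: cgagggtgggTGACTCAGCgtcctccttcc

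SLC3A2, the CD98 heavy chain, fell modestly. Its probe set 200924_s_at read 2678, 2598 and 2552 on the hypoxia arrays, against 3657, 3526 and 3553 on the normoxia arrays. The groups were well apart and each was tight, at 2610 ± 63.8 in hypoxia and 3579 ± 69.2 in normoxia (SD, n = 3 arrays each, as throughout). The log2 change was -0.45 (95% confidence interval -0.61 to -0.29, limma adjusted p = 0.00293), which left 72.9% of the normoxia intensity.

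Among its light chains, SLC7A5 carries leucine and other large neutral amino acids into the cell in exchange for glutamine. It was read by the single probe set 201195_s_at, at 3895, 4017 and 4223 in hypoxia and at 6001, 5853 and 6091 in normoxia. No hypoxia array came near a normoxia array, and the log2 change was -0.56 (95% confidence interval -0.73 to -0.39, limma adjusted p = 0.00152). SLC7A6 exchanges arginine and other cationic amino acids for neutral ones. Its brightest probe set, 203580_s_at, read 1418, 1275 and 1228 in hypoxia and 1904.5, 1695 and 1717 in normoxia, a log2 change of -0.44 (limma adjusted p = 0.0129). In both conditions the array numbered 0 was the highest. The other probe sets of SLC7A6 fell by 0.35 and 0.41 on the log2 scale, so its 3 probe sets gave nearly one value. The call of one of them, 203578_s_at, was lost without both arrays numbered 0 (limma adjusted p = 0.0507).

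SLC7A11 imports cystine in exchange for glutamate and so supplies cysteine for glutathione, the main thiol antioxidant of the cell. Its brightest probe set, 209921_at, read 1330, 1480 and 1451 in hypoxia, against 3083, 3429 and 3291 in normoxia. The highest hypoxia array was below the lowest normoxia array by a wide margin. The log2 change was -1.19 (limma adjusted p = 0.000179, 95% confidence interval -1.39 to -0.995). Its 2 further probe sets also fell. The values of 217678_at were 504, 417 and 404 in hypoxia and 1098, 1088 and 999 in normoxia, a change of -1.24. The dimmest, 207528_s_at, read 48.4, 77.5 and 67.9 in hypoxia and 258, 279 and 250.1 in normoxia, a change of -1.81. One of its hypoxia arrays lay under the median of its array, so the size of that change is uncertain.

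SLC7A1, the main uniporter of arginine, lysine and ornithine in many dividing cells, was covered by 5 probe sets. The brightest, 212295_s_at, read 4043, 3823 and 3807 in hypoxia and 6492, 6073 and 6268 in normoxia, a log2 change of -0.69 (95% confidence interval -0.86 to -0.52, limma adjusted p = 0.000716). The probe sets 212290_at and 212292_at, dimmer but still far above the array medians, fell to 46.2% and 42.3% of normoxia, log2 changes of -1.096 and -1.18. In 212292_at the hypoxia arrays were at 239, 242 and 219.6, against 488, 626 and 542 in normoxia. Both remaining probe sets had mean intensities under 64. Of these 206566_at fell by 0.85 (limma adjusted p = 0.0213), and that call was lost without hypoxia array 1, normoxia array 0 or normoxia array 2 (limma adjusted p = 0.0604, 0.0621 and 0.0639) and without both arrays numbered 0 (0.0692). The other, 215979_s_at, did not pass.

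SLC43A1 is a facilitated carrier of large neutral amino acids that works without the heavy chain. It had the largest fall of the 10 genes, each read by its brightest probe set. The dimmer probe set 207528_s_at of SLC7A11 had a larger one, a log2 change of -1.81. SLC43A1 was read by the dimmest of those 10 brightest probe sets, with a mean intensity of 633. Its probe set 204394_at read 299.6, 285 and 278 in hypoxia, against 1021, 978 and 935 in normoxia. The groups were far apart and each was tight, at 288 ± 10.9 in hypoxia and 978 ± 43.4 in normoxia. The log2 change was -1.71 (95% confidence interval -1.89 to -1.53, limma adjusted p = 6.16e-05, the smallest of the 27 probe sets), and 29.4% of the normoxia intensity was left. A more negative change was found in 0.738% of all probe sets. One probe set carries this gene, so no second reading of it is at hand.

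Of the neutral exchangers of the SLC1 family, SLC1A4, which exchanges alanine, serine, cysteine and threonine, fell. Its brightest probe set, 209610_s_at, read 4475, 3813 and 3729 in hypoxia and 6135, 5259 and 5402 in normoxia, a log2 change of -0.48 (95% confidence interval -0.74 to -0.22, limma adjusted p = 0.0166). The array numbered 0 was the highest in both conditions, and the call was lost without hypoxia array 1 or without hypoxia array 2 (limma adjusted p = 0.0597 and 0.05955). The call of 212811_x_at was lost without the same arrays (limma adjusted p = 0.0507 for each). The same gene was steadier in 212810_s_at, at 2236, 2370 and 2323 in hypoxia and 3351, 3309 and 3347 in normoxia, a change of -0.53 (limma adjusted p = 0.00156). Of its 5 probe sets 4 fell, by 0.48 to 0.92. The one that did not pass, 244377_at, read 399.6, 270.3 and 259.5 in hypoxia and 704, 439 and 352 in normoxia, where the array numbered 0 of hypoxia overlapped the normoxia range.

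SLC1A5, the main sodium-dependent exchanger of glutamine in many tumour cells, read 1720, 1713 and 1725 in hypoxia, against 2058, 1729 and 1816 in normoxia. The hypoxia arrays were almost equal and lay just under the lowest normoxia array, while normoxia array 0 stood well above the other two. The log2 change of 208916_at was -0.11 (95% confidence interval -0.33 to 0.097, limma adjusted p = 0.407). The change was -0.043 without normoxia array 0, -0.043 without both arrays numbered 0, -0.059 after quantile normalization and -0.18 after median centring, and passed under none of these. Its interval overlaps those of SLC7A6, SLC3A2, SLC1A4 and SLC38A2, but overlap of intervals is no test of a difference. Of these genes only SLC1A4 was compared with it array by array, among the pairs below.

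The sodium-coupled carriers SLC38A1 and SLC38A2, which load the cell with glutamine, alanine and other small neutral amino acids, both fell. SLC38A1 read 5584, 5422 and 5513 in hypoxia and 8258, 7902 and 7806 in normoxia in its brightest probe set, 224579_at, a log2 change of -0.54 (limma adjusted p = 0.00153, 95% confidence interval -0.70 to -0.37). Its probe set 218237_s_at fell by 0.61. Its probe set 224580_at fell to 45.1% of normoxia, a log2 change of -1.104, with 274, 298 and 281 in hypoxia against 652, 662 and 578 in normoxia. The remaining probe set, 236857_at, was dim, at a mean intensity of 43.2, and its groups overlapped. SLC38A2, whose transcript is known to be raised by amino acid shortage, read 6957, 7023 and 7053 in hypoxia and 9198, 9371 and 9447 in normoxia in 222982_x_at. All 3 of its probe sets fell, by 0.41 to 0.53, with limma adjusted p of at most 0.00411.

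**Figure D2:**
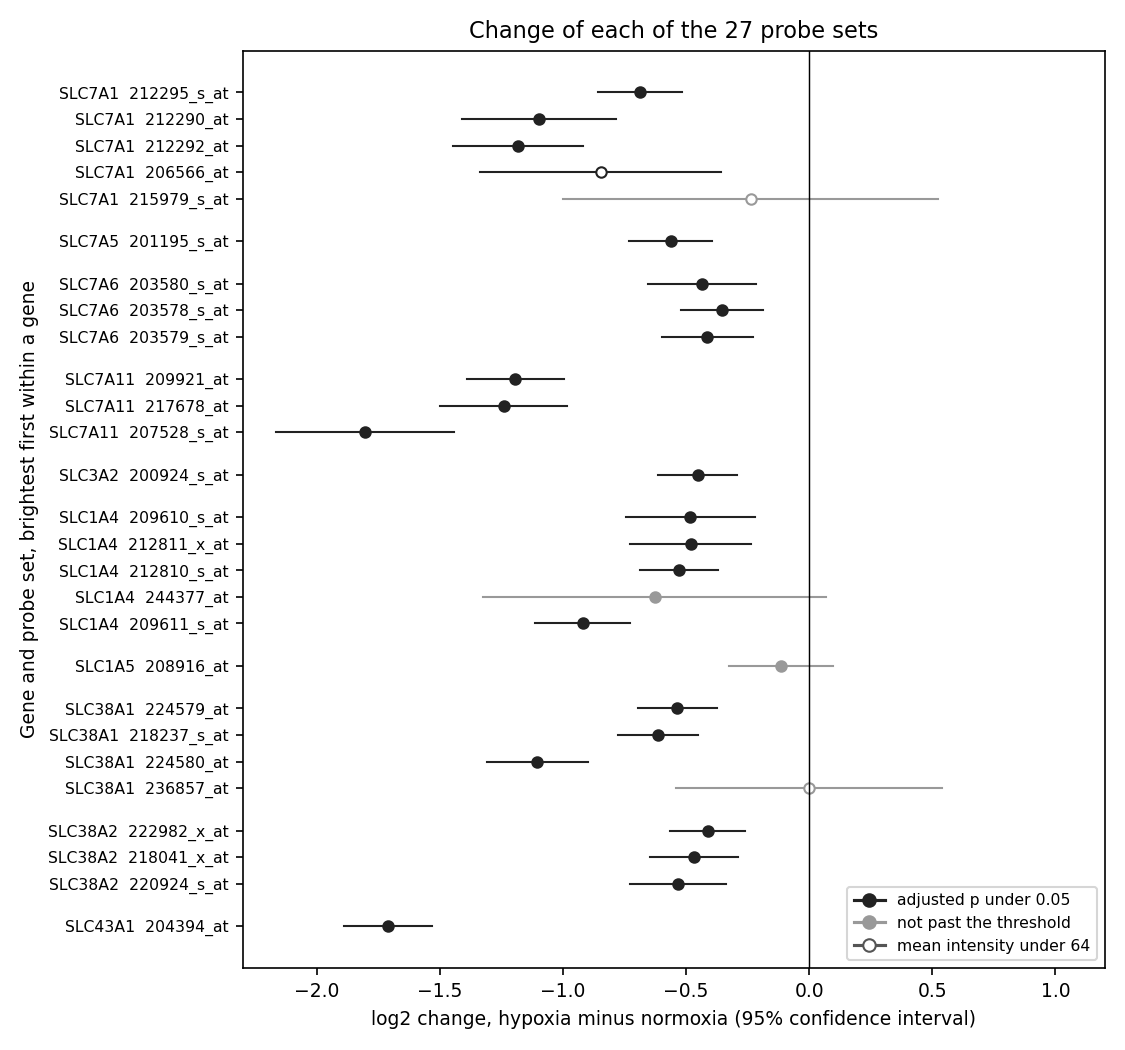
The log2 change (hypoxia minus normoxia) of each of the 27 probe sets with its 95% confidence interval, grouped by gene and brightest first within a gene. Black points passed an adjusted p of 0.05, grey points did not, and open points had a mean intensity under 64; 23 intervals lie wholly below 0, and those of SLC1A5, of 244377_at and of 2 dim probe sets cross it.

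Probe sets of one gene differed in the size of the fall more than in its direction. In 4 of the 6 genes with several probe sets of at least 64, the dimmest of these fell by 0.44 to 0.61 more than the brightest on the log2 scale. These were SLC7A11 (0.61 more), SLC38A1 (0.57 more), SLC7A1 (0.49 more) and SLC1A4 (0.44 more). In SLC38A2 the gap was 0.12, and in SLC7A6 the dimmest fell by 0.021 less. With log2(intensity + 1) the dimmest stood at -2.03 and the brightest at -1.20 in SLC7A11, a wider gap, and at -1.14 and -0.54 in SLC38A1. Over the 24 probe sets, several of which share a transcript, Pearson's r between log2 mean intensity and log2 change was 0.54, given as a description. With the mean of all probe sets standing for a gene, the median change of the 10 genes was -0.56, with SLC43A1 at -1.71, SLC7A11 at -1.41 and SLC7A1 at -0.81.

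Differences between partners and close relatives were taken array by array, in 5 pairs. SLC7A11 fell further than its heavy chain. The log2 difference SLC7A11 minus SLC3A2 was -1.002, -0.81 and -0.81 in hypoxia and -0.25, -0.040 and -0.11 in normoxia, so the difference of the changes was -0.74 (exact two-sided permutation test, p = 0.1, adjusted p = 0.167 over the 5 pairs). A p of 0.1 is the smallest that 3 against 3 arrays can give, so no pair could pass 0.05. SLC1A4 minus SLC1A5 was 1.37, 1.15 and 1.105 in hypoxia and 1.57, 1.60 and 1.56 in normoxia, a difference of changes of -0.37 with no overlap (exact permutation p = 0.1). SLC38A1 minus SLC38A2 gave -0.12, also with no overlap (exact permutation p = 0.1). The light chains SLC7A5 and SLC7A6 kept closer to SLC3A2: their differences of changes were -0.11 and 0.018, and the arrays of the conditions overlapped (exact permutation p = 0.2 and 0.6).

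**Figure D3:**
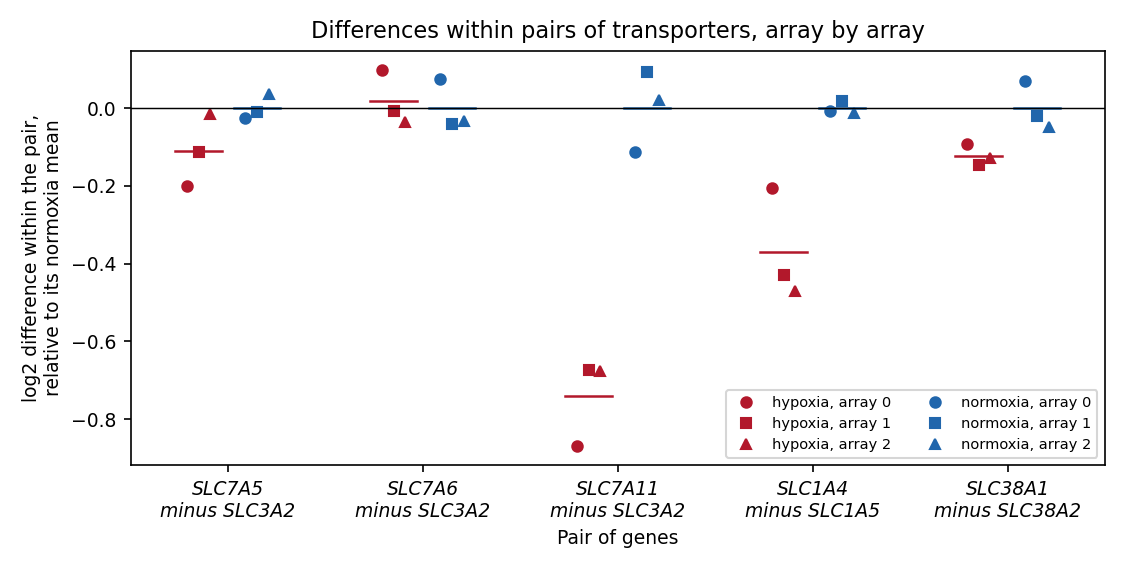
Log2 difference between the brightest probe sets of the genes of each pair on each array, relative to the normoxia mean of that pair, hypoxia in red left of normoxia in blue, with lines at the means. The hypoxia arrays of SLC7A11 minus SLC3A2 lie lowest (mean shift -0.74), those of SLC7A6 minus SLC3A2 lie around 0, and those of SLC7A5 minus SLC3A2 overlap the normoxia arrays.

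Profiles over the 6 arrays, which mostly reflect the difference between the conditions, were compared for SLC7A11 and SLC3A2, each with the 11569 other genes with a mean intensity of at least 64, the other transporters included. By Euclidean distance of centred log2 values, the genes nearest to SLC7A11 were PNPT1, EIF4G1 and PRTFDC1, at distances of 0.053, 0.060 and 0.078. Those nearest to SLC3A2 were ENSA, SSRP1 and ELOC, at 0.032, 0.039 and 0.042. The transporters were not among the nearest genes of either. SLC38A2 and SLC38A1 were the transporters nearest to SLC3A2, at 0.10 and 0.11, or 113th and 137th of the 11569 genes. SLC43A1 was the transporter furthest from SLC3A2, at 1.54. The transporter nearest to SLC7A11 was SLC7A1, at 0.67 and a rank of 1489, and the others lay at 0.68 to 1.36.

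Other amino acid transporters were for the most part dim. Of 43 measured genes of this kind, 8 fell, 2 rose and 33 did not pass, with a median change of -0.070, and 24 of the 43 had a mean intensity under 64. Of the 19 brighter ones 8 fell, 2 rose and 9 did not pass. The share of the 43 that fell is near the 20.6% of all genes. For the 19 brighter ones, 27% of probe sets with a mean intensity of at least 64 fell. Of genes as bright as the 10 transporters 38.3% fell, but most of the 19 were dimmer than those 10. The shares that rose lie below the 16.9% of all genes and the 29% of genes as bright as the 10. The list itself was not tested, so nothing particular to it is read from these shares. SLC38A9, an arginine sensor and carrier of the lysosome, read 648, 665 and 616 in hypoxia against 1095, 1045 and 1127 in normoxia (log2 change -0.75, limma adjusted p = 0.000291), but its 2 probe sets averaged did not pass (0.074, limma adjusted p = 0.441). CTNS, which lets cystine out of the lysosome, fell by 1.21 and SLC36A1, a proton-coupled carrier, by 0.94, and with probe sets averaged their log2 changes were -0.71 and -0.57. SLC38A10 fell by 0.83, or -0.34 with probe sets averaged. SLC6A6, the taurine transporter, rose, at 1582, 1780 and 1732 in hypoxia against 1066, 1136 and 1091 in normoxia (log2 change 0.62, limma adjusted p = 0.000869). SLC36A4 rose by 0.57, but not when its probe sets were averaged (-0.12, limma adjusted p = 0.4495).

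ATF4 is known to raise several of these transporters. Of 30 measured genes of its amino acid response and their regulators, 20 fell, 6 rose and 4 did not pass, with a median change of -0.47. Among genes as bright as the 10 transporters 38.3% fell and 29% rose, and the list itself was not tested. ATF4 itself fell by 0.37, with 7651, 7942 and 7681 in hypoxia against 9942, 10098 and 10019 in normoxia (limma adjusted p = 0.00230). ASNS, asparagine synthetase and a standard target, fell by 0.83, to 5346 ± 48.7 in hypoxia against 9517 ± 348 in normoxia. The smallest adjusted p among those that fell belonged to ALDH1L2 at -1.50, PYCR1, which makes proline, at -1.24, EIF2S1, the initiation factor subunit that stress kinases phosphorylate, at -1.12 and PSAT1, of serine synthesis, at -1.29. EIF2AK4, the kinase that senses uncharged transfer RNA, and EIF2AK3, the kinase of the endoplasmic reticulum, rose by 0.83 and 0.79, the second not when its probe sets were averaged (0.31, limma adjusted p = 0.115). VLDLR rose by 2.77 and is a known hypoxia target too. NUPR1 rose by 0.80 at intensities under 27. With probe sets averaged, EIF2AK1 turned from a log2 change of 0.24 to -0.36 (limma adjusted p = 0.0134), and ATF3, at -0.39, no longer passed (-0.28, limma adjusted p = 0.268); both were singled out after their values were seen.

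Other regulators of the transporters were read in the same fit. MYC, which activates SLC7A5 and SLC1A5 in many tumours, was at 3098 ± 83.4 in hypoxia and 7540 ± 225 in normoxia (log2 change -1.28). NFE2L2, a known activator of SLC7A11, fell by 0.44, to 2356 ± 89.5 in hypoxia against 3191 ± 99.0 in normoxia (limma adjusted p = 0.00210). MTOR fell by 0.48 (limma adjusted p = 0.0216), and HIF1A stood at 2813 ± 8.45 in hypoxia and 2814 ± 58.9 in normoxia. These are transcript levels, and the activity of the factors was not measured.

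Of 17 measured genes that use imported glutamine and cystine, 13 fell, 0 rose and 4 did not pass, with a median change of -0.32. The share falling was 20.6% among all genes and 38.3% among those as bright as the 10 transporters, and the list itself was not tested. CAD and PPAT, which spend glutamine nitrogen on pyrimidines and purines, fell by 2.02 and 1.13 (log2 changes of -1.08 and -0.69 with probe sets averaged), and the aspartate aminotransferase GOT1 by 0.87. GCLM, the modifier subunit of the enzyme that starts glutathione synthesis from cysteine, fell by 0.85, with 312, 314 and 305 in hypoxia against 602, 568 and 542 in normoxia. In the amino acid sensing pathway upstream of mTORC1 12 of 32 genes rose, 11 fell and 9 did not pass, with a median change of 0.045, beside 29% rising and 38.3% falling among genes as bright as the transporters.

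**Figure D4:**
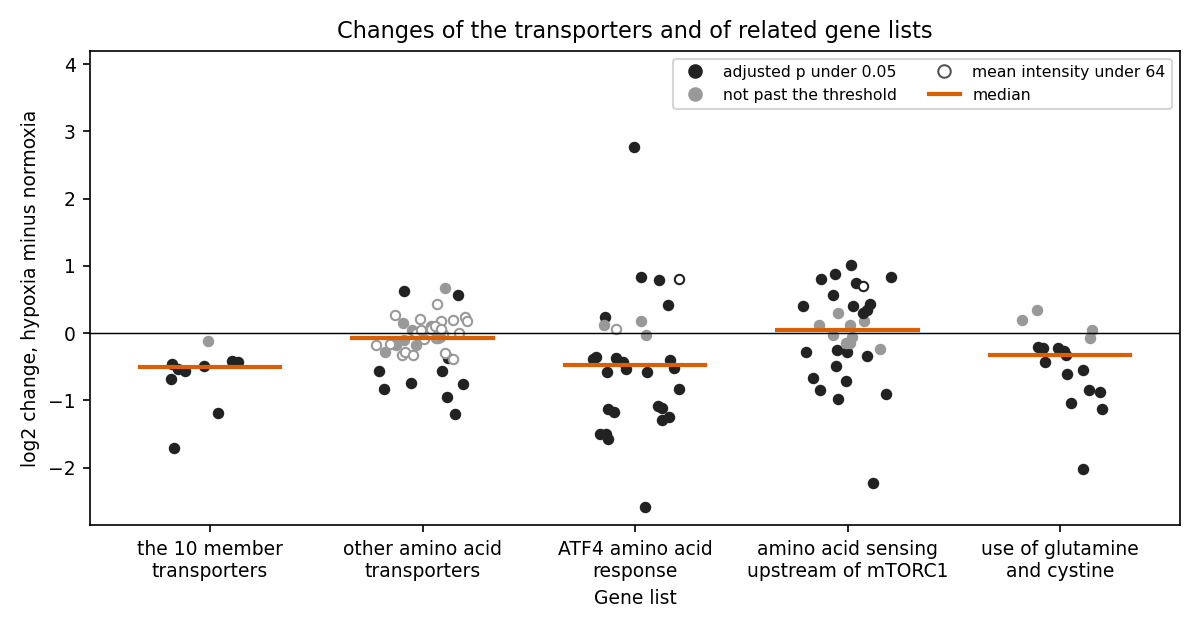
Log2 change (hypoxia minus normoxia) of each gene of the 10 transporters and of 4 related lists, read by the brightest probe set of a gene, with the median as an orange line. Black points passed an adjusted p of 0.05, grey points did not and open points had a mean intensity under 64; the medians are -0.51, -0.070, -0.47, 0.045 and -0.32 from left to right.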

How the data were processed

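RNA from the RNeasy kit was amplified into biotin-labelled cRNA, per the labels' protocols. The authors deposited 1 linear intensity per probe set and array. Their background correction, probe summary and scaling are not given in the sources used here, and 3 arrays per condition limit the precision. Names came from the annotation of the platform: 41091 carried 1 symbol, 1801 several and 11721 none here, and 41037 of the first were matched to RefSeq through Entrez identifiers. No array was a copy of another: 1.07% to 1.23% of values were identical in the 15 pairs of arrays.

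Intensities were turned into log2(intensity + 16), which understates the change of dim genes. A two-sided moderated test of hypoxia against normoxia (limma 3.58.1, lmFit and eBayes, under R 4.3.3) had no covariate, and its p-values were adjusted by Benjamini-Hochberg over the 54613 probe sets, or over 19775 genes each read by its single-symbol probe set of highest mean log2 value. Values of single probe sets of the 10 transporters come from the first fit, and counts of genes and values of other genes from the second. Pairs were tested with exact permutation tests in scipy 1.17.1. Named by rule were all probe sets of the 10 genes, up to 4 genes per list and direction with the smallest adjusted p, the 3 genes nearest in profile to SLC7A11 and to SLC3A2, and 6 regulators or targets. The members, the lists and the motifs were chosen with earlier results of these data known. Arrays with the same number were not taken as pairs. The correlations of their deviations from the group means over all genes were 0.24, 0.0064 and 0.21. Over genes with a mean intensity of at least 64 they were 0.47, 0.086 and 0.47, so that array 1 stayed under 0.1 in both. Over the same brighter genes, arrays of unlike number correlated at -0.46 to 0.20. A fit with the number as a block is given below.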

Additional observations from a re-analysis of the deposited data

How the results depend on the processing

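The counts of transporter genes that fell (9) and rose (0) were kept with pseudocounts of 1 and 64, median centring, quantile normalization, dim probe sets left out, an intensity trend, averaged probe sets, each array left out and both arrays numbered 0 left out. Of the probe sets 20 to 23 fell with each array left out, 21 without both arrays numbered 0, 22 of 24 with dim ones left out and 23 under the other settings. With the replicate number as a block 23 probe sets and 9 genes fell: 206566_at of SLC7A1 was lost (limma adjusted p = 0.0683) and 244377_at of SLC1A4 gained (0.0196). Hypoxia array 1 correlated best with normoxia array 2, not with its own number. Over all probe sets with each array left out, 6752 to 8276 rose and 6824 to 7836 fell. Directions turned for values near 0: 236857_at of SLC38A1 was at 0.011 with a pseudocount of 64 and ran from -0.26 to 0.1425 with each array left out, and 215979_s_at of SLC7A1 from -0.56 to 0.084 (0.021 without both arrays numbered 0). SLC7A6 minus SLC3A2 ran from -0.023 to 0.055 with each array left out and was 0.070 after quantile normalization. The causes were not tested. Median centring moved the median probe set by -0.065.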

Other observations

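In the list of amino acid sensing genes, which includes subunits of mTORC1 itself, 12 rose and 11 fell. Of these RRAGD and RRAGB, GTPases that bring mTORC1 to the lysosome, rose by 0.81 and 0.84. MIOS, a subunit of the GATOR2 complex that relays leucine and arginine, rose by 1.01 (0.30 with its probe sets averaged), at 2679, 3107 and 3075 in hypoxia against 1351, 1555 and 1458 in normoxia. SEH1L, a subunit of the same complex that also serves the nuclear pore, fell by 2.23, at 734, 723 and 693 in hypoxia against 3544, 3412 and 3323 in normoxia (limma adjusted p = 2.07e-05, and a fall of 1.40 with probe sets averaged). SESN3, a sestrin, rose by 0.75, and did not pass with its 7 probe sets averaged (0.25, limma adjusted p = 0.0632). KPTN fell by 0.84, and MLST8, a subunit of mTORC1, by 0.97. NPRL3 of the GATOR1 complex fell by 0.66, or a log2 change of -0.28 with probe sets averaged, and the other GATOR1 genes NPRL2 and DEPDC5 fell by 0.28 and 0.72, NPRL2 not with probe sets averaged (-0.21, limma adjusted p = 0.145); these last genes were chosen after their values were seen.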
